A study of Mus musculus with 4 samples.

Results

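Integrin, laminin and basement membrane linker genes were examined in RNA sequencing of mammary gland cells sorted into Lgr6-positive (Lgr6+) and Lgr6-negative (Lgr6-) populations. The members and the lists of partners below were chosen with earlier results of these data known. A rule on gene symbols, which uses no measured value, gave the members. They are the integrin alpha and beta subunits, the laminin alpha, beta and gamma chains, the nidogens Nid1 and Nid2, perlecan (Hspg2), agrin (Agrn) and dystroglycan (Dag1), in all 42 of the 24442 genes in the deposited table. Both populations came from the glands of 5-week-old female mice with the Lgr6-eGFP-CreErt2 allele, in which a green fluorescent protein and an inducible Cre recombinase are driven from the Lgr6 locus, and there were 2 libraries of each population. No treatment is given. The labels state that lineage-negative cells were sorted for Lgr6, without naming the lineage markers, the Lgr6- gate, the strain or the animals behind each replicate, and the spread behind each p-value is therefore that of these libraries, which may be technical.

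Basement membranes are sheets of extracellular matrix that underlie epithelia and surround vessels, fat and muscle cells. A laminin is a cross-shaped trimer of an alpha, a beta and a gamma chain, and laminin networks are tied to type IV collagen by nidogen and perlecan. Integrins are receptors made of an alpha and a beta subunit that link this matrix, or other cells, to the cytoskeleton. In the mammary gland, basal (myoepithelial) cells lie directly on the basement membrane and hold it through the laminin receptors alpha6beta4, which builds hemidesmosomes, and alpha3beta1, whereas leukocytes use a separate set of integrins, built on beta2 and beta7, to bind other cells.

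Total counts were between 6819127 and 7167465 per library, and 11661 genes passed the filter on low counts and were tested. Lgr6 itself had 172 and 655 counts in the Lgr6+ and 3 and 10 in the Lgr6- libraries, with an adjusted p of 0.0510. The ribosomal transcript Rn45s took 17.2% and 14.5% of Lgr6+ and 18.7% and 30.8% of Lgr6- counts, and its removal kept all 16 calls described below. Of the markers of other cell types, 6 of 6 pan-leukocyte genes were lower in the Lgr6+ libraries, where their summed level was 504 and 655 CPM (counts scaled to library size with TMM factors), against 7446 and 7152 CPM in the Lgr6- libraries, although the sort is labelled as lineage-negative. Luminal markers (8 of 10 tested higher) summed to 5071 and 4932 CPM in the Lgr6+ against 171 and 151 CPM in the Lgr6- libraries, and basal markers (3 of 9 higher) to 2110 and 2268 against 259 and 235 CPM. The part that these differences in cell content play in the results below was not tested, and in bulk samples fewer cells of a type and less RNA per cell cannot be told apart.

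The calls for higher levels in Lgr6+ cells fell on 4 integrin subunits, 3 laminin chains, 3 linkers and dystroglycan, and those for lower levels on 4 leukocyte integrin subunits and Itga4. Of the 42 genes, 37 were tested. In edgeR's quasi-likelihood test (Benjamini-Hochberg adjusted p under 0.05 over all tested genes) 11 were higher, or 29.7%, against 4.49% of all genes tested. In the other direction 5 were lower, or 13.5%, against 4.57%. The higher genes were Itga3, Itga6, Itgb4, Itgb8, Lama4, Lama5, Lamc1, Nid1, Hspg2, Agrn and Dag1, and the lower ones Itga4, Itgal, Itgam, Itgb2 and Itgb7. Both Lgr6+ libraries lay above both Lgr6- libraries for 22 of the 37 genes (59.5%, against 30.0% of all genes tested), the reverse held for 8 (21.6%, against 25.9%), and 7 overlapped. The median log2 fold change (Lgr6+ over Lgr6-) was 2.07, against 0.10 over all genes tested. Library-size scaling raised the latter median to 0.56 and the share of higher genes among all calls from 49.6% to 65.8%, while it kept all 16 calls made here. The remaining 5 genes had too few counts to be tested: Itga7 (1 and 8 counts in the Lgr6+ libraries), Itga10 (30 and 1), Lama2 (49 and 2) and Lamc3 (1 and 0) had none in the Lgr6- libraries, and Itgad had only 2 counts, in Lgr6- replicate 2.

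**Figure D1:**
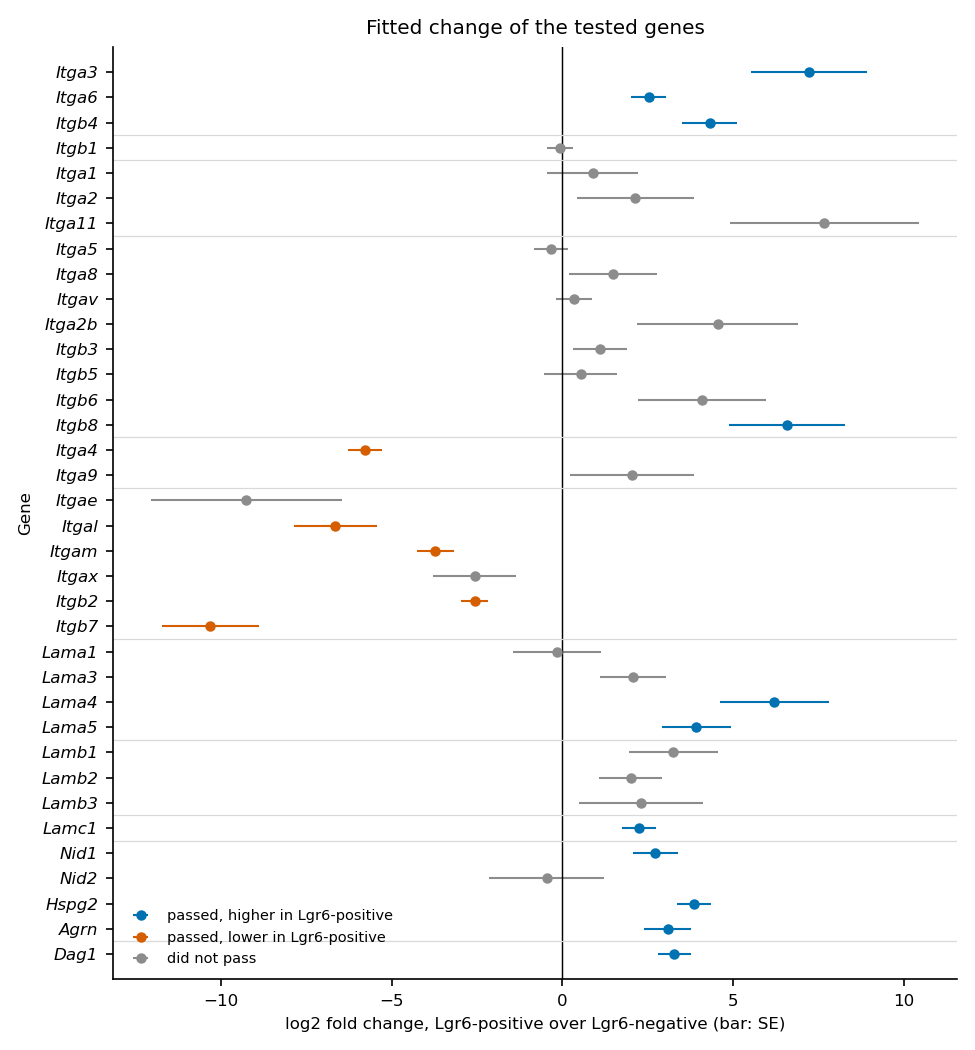
Fitted log2 fold change (points) and standard error (bars) of 36 of the 37 tested genes, ordered by ligand or chain type from integrins at the top to dystroglycan at the bottom. The 4 passing integrins to the right of 0 are Itga3, Itga6, Itgb4 and Itgb8, the 5 to the left are Itga4, Itgal, Itgam, Itgb2 and Itgb7, and all 7 passing matrix genes and dystroglycan lie to the right. The far values of Itga11 and Itgae, which had no counts in 1 population, depend on the prior count of the fit.

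Promoter sequences are shown for genes called in either direction, so that the letters at their starts can be set side by side. RefSeq promoter windows (build GRCm38.p6, 250 bases before to 50 after a transcript start) were matched by symbol for 27 of the 42 genes, in 32 windows. Shown first are those of Itgam (chr7:128062390-128062689, plus strand) Itgb7 (chr15:102231886-102232185, minus strand) and Itga4 (chr2:79255176-79255475, plus strand), all lower in Lgr6+ cells. They are followed by Nid1 (chr13:13437352-13437651, plus strand), Hspg2 (chr4:137468553-137468852, plus strand) and Lama5 (chr2:180225810-180226109, minus strand), all higher there. Capitals mark matches on either strand to the PU box GAGGAA, the letters bound by the myeloid factor PU.1, or to the AP-1 motif TGANTCA.
Itgam: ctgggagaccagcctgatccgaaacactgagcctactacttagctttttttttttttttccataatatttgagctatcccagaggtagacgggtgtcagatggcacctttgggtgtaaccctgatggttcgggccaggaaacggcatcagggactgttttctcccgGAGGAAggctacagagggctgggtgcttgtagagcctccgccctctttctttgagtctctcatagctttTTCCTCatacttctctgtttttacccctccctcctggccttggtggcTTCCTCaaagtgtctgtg
Itgb7: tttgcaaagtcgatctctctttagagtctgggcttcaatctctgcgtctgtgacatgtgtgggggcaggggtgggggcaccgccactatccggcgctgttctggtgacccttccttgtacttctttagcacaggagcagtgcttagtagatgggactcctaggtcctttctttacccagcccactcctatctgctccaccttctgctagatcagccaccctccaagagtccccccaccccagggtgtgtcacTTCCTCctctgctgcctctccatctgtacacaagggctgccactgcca
Itga4: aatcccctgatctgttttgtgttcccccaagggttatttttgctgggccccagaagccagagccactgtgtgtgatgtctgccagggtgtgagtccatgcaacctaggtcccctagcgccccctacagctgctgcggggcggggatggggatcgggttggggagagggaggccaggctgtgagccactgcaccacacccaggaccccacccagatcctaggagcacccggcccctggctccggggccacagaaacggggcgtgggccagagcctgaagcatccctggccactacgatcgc
Nid1: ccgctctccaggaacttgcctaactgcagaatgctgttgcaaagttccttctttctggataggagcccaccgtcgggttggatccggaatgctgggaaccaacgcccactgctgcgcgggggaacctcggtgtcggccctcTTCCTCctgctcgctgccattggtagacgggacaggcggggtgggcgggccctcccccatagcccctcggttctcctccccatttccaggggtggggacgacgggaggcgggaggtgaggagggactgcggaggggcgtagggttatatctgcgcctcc
Hspg2: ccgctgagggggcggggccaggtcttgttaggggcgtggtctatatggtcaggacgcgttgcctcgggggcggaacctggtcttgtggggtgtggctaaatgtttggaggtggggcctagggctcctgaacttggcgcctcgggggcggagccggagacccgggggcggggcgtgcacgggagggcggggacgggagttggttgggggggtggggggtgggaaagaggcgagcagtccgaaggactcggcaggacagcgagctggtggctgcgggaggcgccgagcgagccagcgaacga
Lama5: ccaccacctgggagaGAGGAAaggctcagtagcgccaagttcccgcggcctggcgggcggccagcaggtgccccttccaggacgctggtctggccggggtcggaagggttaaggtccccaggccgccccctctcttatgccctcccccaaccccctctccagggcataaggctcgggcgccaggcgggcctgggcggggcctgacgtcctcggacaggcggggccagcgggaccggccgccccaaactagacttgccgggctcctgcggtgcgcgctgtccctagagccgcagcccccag
The Itgam window held 3 PU boxes, those of Itgb7, Nid1 and Lama5 held 1 each, and those of Itga4 and Hspg2 held none of either motif. A PU box was in 15 of the 32 windows (46.9%), in 2 of 3 of genes called lower and in 3 of 10 of genes called higher. These windows cover only 3 of the 5 lower and 7 of the 11 higher genes, and no difference between the shares was tested. Over all 32851 RefSeq windows of this length the share was 28.3%. AP-1 letters were in 1 of the 10 windows of higher genes and in 7.81% of all windows. A match is a description of the letters and not a binding site.

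Itga3, Itga6 and Itgb4, the tested subunits grouped here as laminin-binding, were higher in Lgr6+ cells, while Itgb1, which laminin receptors share with others, did not pass. Itga6, the alpha6 subunit that pairs with beta1 or beta4, was at 251 and 221 CPM in the Lgr6+ and 40.3 and 41.6 CPM in the Lgr6- libraries. The libraries of each population lay close together, and the log2 fold change was 2.53 (SE 0.51, adjusted p = 0.0182). Itgb4, the beta4 subunit with the long cytoplasmic tail that anchors keratin filaments at hemidesmosomes, was at 149 and 118 against 4.21 and 9.24 CPM. Its log2 fold change was 4.31 (SE 0.82, adjusted p = 0.0139), and only limma-voom missed the threshold, at an adjusted p of 0.0505. These genes lie at chr2:71745616-71858416 and chr11:115974709-116008412 (GRCm38). Itga3, the alpha3 subunit, differed between the Lgr6+ libraries themselves, at 25.9 and 264 CPM, against 0 and 1.96 CPM in the Lgr6- libraries. It passed with a log2 fold change of 7.21 (SE 1.70, adjusted p = 0.0332), a call that was lost when Lgr6+ replicate 2 was left out (4.69, adjusted p = 0.231) and in limma-voom (0.0866). All 11 of its Lgr6- counts came from replicate 2, and without that library the fitted value of 13.1 is no bound.

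Itgb1, the beta1 subunit that pairs with most matrix-binding alpha subunits, had high levels in all 4 libraries, at 443 and 329 CPM in the Lgr6+ and 489.9 and 320.3 CPM in the Lgr6- population. The populations overlapped, and the log2 fold change was -0.07 (SE 0.38, adjusted p = 0.952), with a positive sign under library-size scaling (0.36). Levels of different genes were compared per kilobase of merged exons. On that scale Itga6 stood at 0.256 and 0.303 of the Itgb1 level in the Lgr6+ libraries and at 0.0372 and 0.0587 in the Lgr6- libraries. Itgb4 stood at 0.763 and 0.690 of the Itga6 level in the Lgr6+ and at 0.135 and 0.286 in the Lgr6- libraries. Both subunits of the hemidesmosome integrin were thus of a similar order per kilobase in the Lgr6+ libraries, and beta4 was the scarcer of the pair in each library.

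None of the collagen receptor alpha subunits passed in edgeR (0 of 3 tested, 1 at an unadjusted p under 0.05, and 0 in DESeq2 and limma-voom). Over all genes 4.49% were higher and 4.57% lower, and at those shares few or none of 3 genes would pass. Itga11, which fibroblasts use to bind fibrillar collagen, had 26 and 32 counts in the Lgr6+ libraries and none in the Lgr6- libraries. Against a floor of 3 counts per library it was at least 7.23-fold higher (adjusted p = 0.127). Itga2, the alpha2 subunit of epithelial cells and platelets, was at 29.4 and 7.48 against 1.09 and 7.29 CPM (log2 fold change 2.14, SE 1.72, adjusted p = 0.527), so that the lower Lgr6+ library nearly met the upper Lgr6- one. Itga1, at 13.2 and 29.9 against 8.11 and 15.3 CPM, overlapped between populations.

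Of the subunits that bind the RGD motif of fibronectin, vitronectin or latent TGF-beta, 1 of 8 was higher (12.5%, against 4.49% of all genes). This was Itgb8, whose partner is alphav and which binds latent TGF-beta, with 114 and 527 counts in the Lgr6+ and 4 and 1 counts in the Lgr6- libraries. All of its Lgr6+ values lay above the others, but they differed from each other, at 14.0 and 66.8 CPM. The log2 fold change was 6.58 (SE 1.70, adjusted p = 0.0462), and the call was lost when Lgr6+ replicate 2 was left out (5.02, adjusted p = 0.370), when Lgr6- replicate 2 was left out (0.0772), in limma-voom (0.0516) and with a replicate block (0.0518). Itgb6, the other epithelial beta subunit that binds latent TGF-beta, was at 33.5 and 39.0 CPM against 4.21 and 0 CPM. It did not pass (4.09, SE 1.87, adjusted p = 0.218), and when Lgr6- replicate 1 was left out, which held all 27 counts there, it did (adjusted p = 0.0135).

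None of the other RGD-binding subunits passed. Itga5, the fibronectin receptor subunit, was at 108 and 128 CPM in the Lgr6+ and 144 and 153 CPM in the Lgr6- libraries, with a log2 fold change of -0.34 (SE 0.50, adjusted p = 0.767) that was 0.11 under library-size scaling. Itgav, the alphav subunit shared by several beta subunits, was at 151 and 111 against 89.1 and 118 CPM and overlapped. Itgb3, the beta3 subunit of platelets, osteoclasts and endothelium, was at 42.9 and 178 against 38.2 and 64.5 CPM, and its sign turned when Lgr6+ replicate 2 was left out (log2 fold change 1.11 in all libraries and -0.29 without it). Itga2b, its platelet partner, had 20 and 51 counts against 0 and 2, or 26.6 times as many for the depth (95% counting interval 7.10 to 224), and did not pass (adjusted p = 0.288). Of 6 platelet markers 3 had no counts in any library, and the 6 summed to 20.8 and 19.0 CPM in the Lgr6+ against 0.156 and 1.24 CPM in the Lgr6- libraries. Most of the Lgr6+ sum was Pf4, at 14.0 and 19.0 CPM, while Gp1bb had counts only in the Lgr6- libraries (1 and 6). The part of platelet RNA in the Itga2b counts was not tested. Counting intervals and floors leave out the spread between libraries. They also leave out the error of amplification, as the PCR reads carried no stated molecular identifiers. Itga8, at 39.1 and 15.3 against 9.36 and 10.1 CPM, and Itgb5, at 47.3 and 19.4 against 27.8 and 18.3 CPM, did not pass either. With 2 libraries per population only large differences pass, so these genes may still differ.

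**Figure D2:**
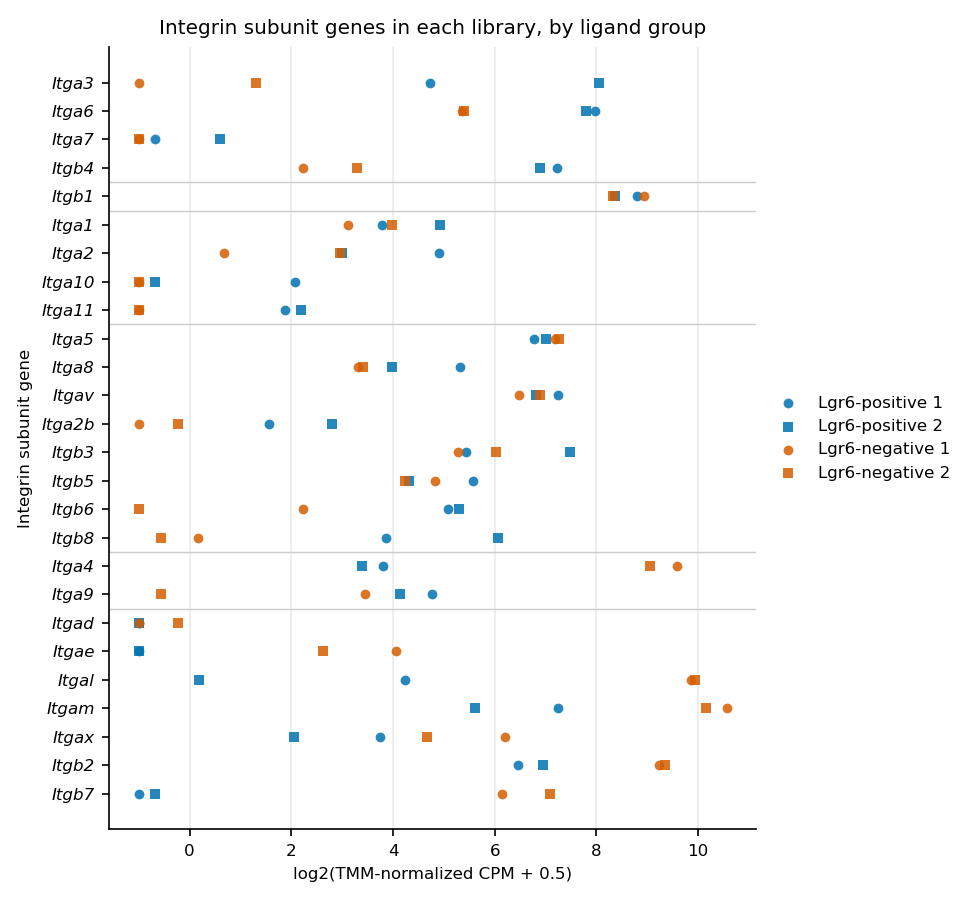
Level of each of the 26 integrin subunit genes in each library, as log2(TMM-normalized CPM + 0.5), with lines between ligand groups (from the top: laminin, Itgb1, collagen, RGD, Itga4 with Itga9, and leukocyte integrins). Blue Lgr6+ points lie right of orange Lgr6- points for the laminin group, left of them for Itga4 and for Itgae to Itgb7, and among them for Itgb1 and Itgav.

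Leukocyte integrins were lower in Lgr6+ cells, with 4 of 6 tested past the threshold (66.7%, against 4.57% of all genes). All 6 subunits had negative fold changes. Their median log2 fold change was -5.19, or -4.30 with Itgae, which had no Lgr6+ counts, placed at its bound. Itgb2, the beta2 subunit common to the leukocyte integrins LFA-1 and Mac-1, was at 87.7 and 123 CPM against 599 and 649 CPM (-2.57, SE 0.39, adjusted p = 0.00527). Itgam, the alphaM subunit of Mac-1 on monocytes, macrophages and neutrophils, was at 151 and 48.5 CPM in the Lgr6+ and 1513 and 1137 CPM in the Lgr6- libraries, and its log2 fold change was -3.73 (SE 0.54, adjusted p = 0.00428). Itgal, the alphaL subunit of LFA-1, had 150 and 5 counts against 5975 and 5526. It fell by 6.65 on the log2 scale (SE 1.21, adjusted p = 0.0117), or by 10.5 when Lgr6+ replicate 1 was left out, which held nearly all of its Lgr6+ counts.

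The beta7 and alpha4 subunits, which together form the receptor that brings lymphocytes to the gut, were also lower. Itgb7 had 0 and 1 counts in the Lgr6+ libraries and 447 and 762 in the Lgr6- libraries. Scaled for depth, the Lgr6- level was 1612 times the Lgr6+ level (95% counting interval 289 to 63724, without the spread between libraries). The fitted log2 fold change was -10.3 (SE 1.42, adjusted p = 0.00340). Itga4, which pairs with beta1 as well, was at 13.5 and 10.0 CPM against 771 and 527 CPM (log2 fold change -5.79, SE 0.49, adjusted p = 5.28e-04). All 5 lower genes passed under each of the 12 alternatives. Itgae, the alphaE subunit of epithelium-homing T cells and some dendritic cells, had 103 and 32 counts in the Lgr6- libraries and none in the Lgr6+ libraries. It was at least 29.1-fold lower (adjusted p = 0.0811). Itgax, the alphaX subunit used to mark dendritic cells and some macrophages, was at 12.9 and 3.67 against 73.5 and 24.9 CPM (log2 fold change -2.57, SE 1.21, adjusted p = 0.234). Itga9, which is related to alpha4 and binds tenascin, did not pass, at 26.9 and 17.0 against 10.5 and 0.178 CPM (2.04, SE 1.82, adjusted p = 0.578). Its fitted value was 6.80 when Lgr6- replicate 1 was left out and 1.05 when Lgr6- replicate 2 was.

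The alphaL gene lies at chr7:127296260-127335138 and the alphaM, alphaX and alphaD genes follow each other at chr7:128062640-128118491, chr7:128129547-128150657 and chr7:128154376-128223816. In GENCODE M21 the model Gm49368 covers 68.7% of the exonic bases of Itgam, so how reads were shared between them in the authors' annotation bears on the Itgam counts. Other gene models cover 8.04% of the exonic bases of Itga4, 8.45% of Nid2 and 7.66% of Itgb4, and the strand setting of the counting is not known. Per kilobase, Itgal stood at 0.723 and 0.703 of the Itgb2 level in the Lgr6- libraries, and at 0.0975 and 0.00239 in the Lgr6+ libraries. Itgam stood at 1.53 and 1.06 of the Itgb2 level in the Lgr6- and at 1.05 and 0.240 in the Lgr6+ libraries. The pan-leukocyte gene Ptprc (CD45) had 394 and 185 counts in the Lgr6+ and 11168 and 6692 in the Lgr6- libraries, a log2 fold change of -5.35. That of Itgb2, -2.57, was nearer 0, and the difference between the genes was not tested. Monocyte and macrophage markers (5 of 7 tested lower), natural killer markers (4 of 4 lower, with no counts in both Lgr6+ libraries) and 3 of 4 neutrophil markers were lower along with these integrins. The other neutrophil marker, Retnlg, had 79 and 149 counts in Lgr6+ and none in Lgr6- libraries (at least 28.5-fold higher, adjusted p = 0.0725). T cell, B cell and dendritic cell markers had no call in edgeR (0 of 5, 0 of 4 and 0 of 3 tested). Of these, 4, 0 and 2 were lower at an unadjusted p under 0.05, 3, 1 and 1 in DESeq2 and 3, 0 and 1 in limma-voom. Summed T cell markers stood at 8.09 and 19.1 against 132 and 108 CPM, B cell markers at 22.9 and 14.3 against 89.4 and 102 CPM, and dendritic cell markers at 6.25 and 0.887 against 23.6 and 17.8 CPM. The part of these cell types in the integrin results was not tested.

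Per kilobase, the integrin mRNA pools of the populations had different make-ups. Of the summed alpha subunit level per kilobase, leukocyte alpha subunits made up 82.1% and 81.3% in the Lgr6- libraries and 29.5% and 8.27% in the Lgr6+ libraries. Laminin-binding alpha subunits made up 26.9% and 55.6% of the Lgr6+ pool, against 0.793% and 1.05% of the Lgr6- pool. RGD-binding alpha subunits made up 34.7% and 31.1% of the Lgr6+ pool, against 6.90% and 9.25% of the Lgr6- pool. They were the largest group in Lgr6+ replicate 1. Itga3 alone took 3.77% and 36.3% in the Lgr6+ libraries and Itgam 25.0% and 7.59%, so that these libraries differed from each other at both, while Itga6 took 23.1% and 19.2%. Among beta subunits, Itgb1 made up 58.7% and 43.6% of the Lgr6+ and 33.6% and 21.96% of the Lgr6- pool, and the leukocyte subunits Itgb2 and Itgb7 together 15.5% and 21.8% against 62.0% and 73.2%. A share depends on the other genes of its pool, so a larger share need not mean a higher level. The level of Itgb1 overlapped between populations, with a log2 fold change of -0.07. All shares are given with no test.

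**Figure D3:**
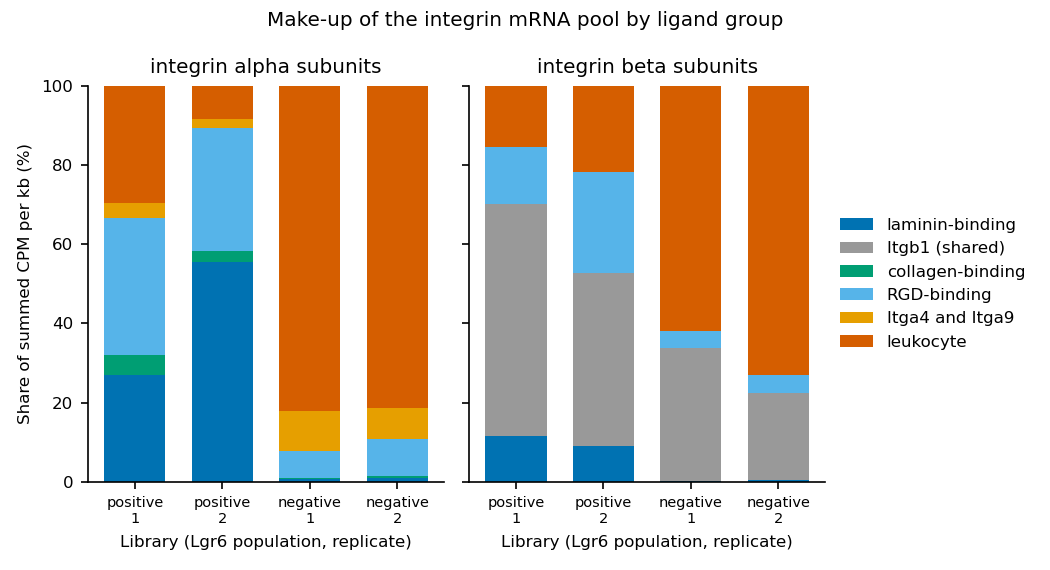
Share of the summed CPM per kilobase of merged exons that each ligand group takes among integrin alpha subunits (left) and beta subunits (right), in percent, for each library. Leukocyte subunits fill 82.1% and 81.3% of the Lgr6- alpha bars and 29.5% and 8.27% of the Lgr6+ ones.

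Laminins, linkers and dystroglycan were higher in Lgr6+ cells in 7 of 14 tested cases (50.0%, against 4.49% of all genes). None was lower in edgeR, where 4.57% of all genes were, nor in DESeq2 or limma-voom, and 0 had an unadjusted p under 0.05 in that direction. At that share few or none of 14 genes would be lower. The median log2 fold change was 2.90. Lama5, the alpha chain of the widespread epithelial and vascular laminins, was at 134 and 127 CPM in the Lgr6+ and 14.98 and 2.13 CPM in the Lgr6- libraries. Its log2 fold change was 3.92 (SE 1.01, adjusted p = 0.0446), and the call was lost when Lgr6- replicate 2 was left out (3.10, adjusted p = 0.0516) and in limma-voom (0.0609), while it was 5.91 without replicate 1 of that population. Lama4, the alpha chain of vessel, fat and nerve laminins, was at 57.4 and 109 CPM against 2.18 and 0 CPM (6.21, SE 1.60, adjusted p = 0.0452). All 14 of its Lgr6- counts came from replicate 1, and it passed under every alternative.

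Lama3 and Lamb3, an alpha and a beta chain of epithelial laminins, did not pass. Lama3 was at 70.4 and 45.9 against 12.8 and 14.9 CPM (log2 fold change 2.07, SE 0.96, adjusted p = 0.228) and Lamb3 at 20.7 and 9.88 against 5.62 and 0.533 CPM (2.31, SE 1.82, adjusted p = 0.516). Both chains had Lgr6+ libraries above both Lgr6- libraries. Lama1, the embryonic alpha chain, overlapped between populations at 23.3 and 10.3 against 12.2 and 25.2 CPM.

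Lamc1, the gamma chain of most laminins, was at 254 and 271 CPM in the Lgr6+ and 64.1 and 47.1 CPM in the Lgr6- libraries. Its log2 fold change was 2.24 (SE 0.49, adjusted p = 0.0257), and the call was lost only when Lgr6- replicate 2 was left out (2.02, adjusted p = 0.0745). The gene lies at chr1:153218922-153332786 on the minus strand. The beta chains Lamb1, at 47.8 and 37.9 against 7.33 and 1.60 CPM (3.25, SE 1.31, adjusted p = 0.157), and Lamb2, at 85.2 and 65.4 against 9.52 and 28.1 CPM (2.002, SE 0.92, adjusted p = 0.222), did not pass although their libraries did not overlap.

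The beta chain proportions of both Lgr6+ libraries were close, and the alpha chains differed more. Lama5 made up 45.6% and 43.6% of the summed alpha chain level per kilobase, Lama3 25.3% and 16.8%, and Lama4 18.4% and 35.4%. Lamb2 made up 63.8% and 66.9% of the beta chains, ahead of Lamb1 (21.95% and 23.8%) and Lamb3 (14.3% and 9.30%). In the Lgr6- libraries Lama3 took 30.2% and 33.2% of the alpha chain level, while Lama1 took 31.9% and 62.3% and Lama5 33.3% and 4.48%.

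**Figure D4:**
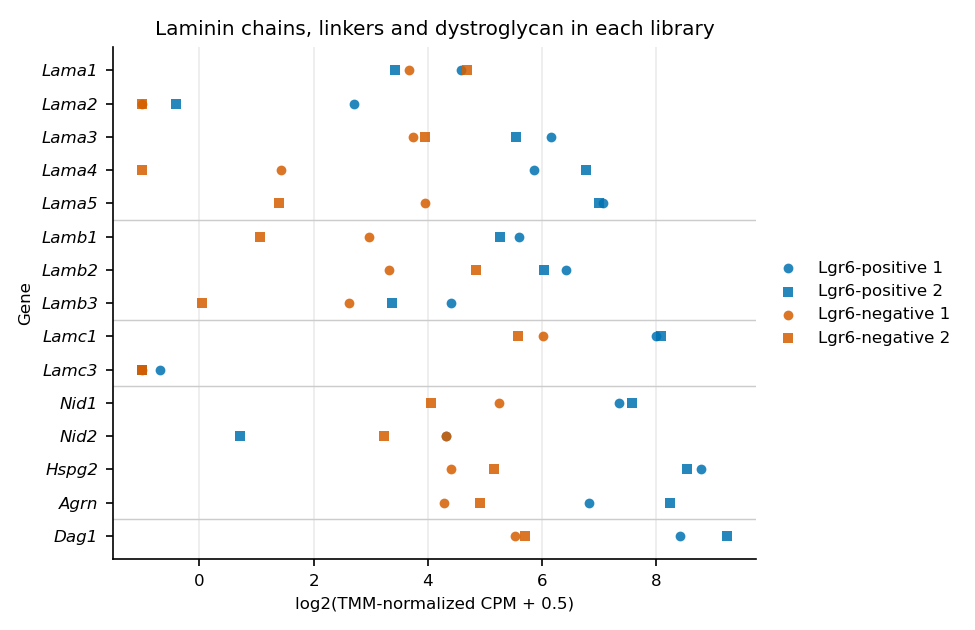
Level of 10 laminin chain genes, 4 linkers and dystroglycan in each library, as log2(TMM-normalized CPM + 0.5), with lines between alpha, beta and gamma chains, linkers and dystroglycan. Lgr6+ points lie right of Lgr6- points for all tested genes drawn but Lama1 and Nid2.

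Linkers of the basement membrane followed the same direction, with 3 of 4 higher (75.0%, against 4.49% of all genes). Hspg2, the heparan sulfate proteoglycan perlecan, was at 441 and 370.3 CPM in the Lgr6+ and 20.8 and 35.4 CPM in the Lgr6- libraries. The log2 fold change was 3.85 (SE 0.51, adjusted p = 0.00281), and it passed under all 12 alternatives. Nid1, which bridges the laminin gamma1 chain and type IV collagen, was at 163 and 189.9 against 37.3 and 16.2 CPM (2.72, SE 0.66, adjusted p = 0.0363). Its call was lost when Lgr6- replicate 2 was left out (2.22, adjusted p = 0.105). Agrn, the proteoglycan that binds laminin and dystroglycan, was at 113 and 301 against 19.0 and 29.7 CPM (3.09, SE 0.69, adjusted p = 0.0268), and it did not pass when Lgr6+ replicate 2 was left out (2.18, adjusted p = 0.135) or in limma-voom (0.0761). Nid2, the second nidogen, was at 19.4 and 1.14 against 19.3 and 8.89 CPM, and the fitted difference of -0.46 on the log2 scale (SE 1.69, adjusted p = 0.9195) took either sign when single libraries were left out.

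Dag1 encodes both subunits of dystroglycan, a laminin receptor outside the integrin family. It was at 341 and 603 CPM in the Lgr6+ and 45.4 and 51.7 CPM in the Lgr6- libraries (log2 fold change 3.28, SE 0.48, adjusted p = 0.00428) and passed under all 12 alternatives. Per kilobase it stood at 0.494 and 1.18 of the Itgb1 level in the Lgr6+ libraries and at 0.0595 and 0.104 in the Lgr6- libraries. The gene lies at chr9:108204634-108263958, and Hspg2 at chr4:137468769-137570630. Endothelial markers moved in the same direction as the laminins and linkers (5 of 8 tested higher, summed level 1482 and 1757 against 217 and 144 CPM), as did fibroblast markers (2 of 6 higher, 715 and 453 against 29.2 and 60.1 CPM) and pericyte markers (1 of 5 higher, 316 and 134 against 1.09 and 18.5 CPM). Red cell markers were higher too (6 of 7, summed level 1394 and 1186 against 23.9 and 19.7 CPM), and the 6 are globin genes with near-identical copies, between which reads may have been split. The part of each cell type in the laminin, linker and dystroglycan results was not tested.

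Partners of these genes were read from lists of known components. The counts called in each list are to be read against 4.49% of all genes higher and 4.57% lower. Of 5 hemidesmosome partners, 3 were higher: the plakins Dst (log2 fold change 3.30, SE 0.39, adjusted p = 0.00191) and Plec (1.38, SE 0.34, 0.0398) and the transmembrane collagen Col17a1 (3.00, SE 0.72, 0.0350). The tetraspanin Cd151, which binds alpha3beta1 and alpha6beta4, was at 2.92 (SE 0.99, 0.103). Plec lost its call without either Lgr6- library, with adjusted p-values of 0.0791 and 0.0892, and Col17a1 without replicate 1 of the Lgr6- (0.0637) or replicate 2 of the Lgr6+ population (0.127), and in limma-voom (0.0687). Of 4 other laminin receptors, the syndecans Sdc4 (3.50, SE 0.39, 0.00143) and Sdc1 (3.10, SE 0.74, 0.0346) and the Lutheran glycoprotein Bcam (3.56, SE 0.80, 0.0279) were higher, and Sdc2 was not called (2.27, SE 1.83, 0.527). Sdc1 missed the threshold when Lgr6- replicate 1 was left out (0.0787), and Sdc1 (0.0507) and Bcam (0.0673) missed it in limma-voom.

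The 14 tested components of basement membranes outside the laminins and linkers had a median log2 fold change of 4.15. It was 3.92 with 4 genes without Lgr6- counts placed at their bounds. Of the 14, 4 were higher (28.6%, against 4.49% of all genes). Among them was Col4a6, a type IV collagen chain with 222 and 914 counts against none (at least 143-fold higher, adjusted p = 0.0107). The others were the collagen-binding Sparc (3.24, SE 0.63, 0.0149), the peroxidase Pxdn that cross-links type IV collagen (6.62, SE 1.52, 0.0303) and nephronectin, Npnt, a ligand of alpha8beta1 (7.67, SE 1.59, 0.0195). The last had 370 and 1089 counts against 0 and 5. The other tested type IV collagen chains did not pass. Col4a1 was at 114 and 180 against 17.3 and 49.9 CPM, and Col4a2 at 90.6 and 159 against 50.4 and 14.8 CPM. Col4a5, at 46.5 and 2.28 against 0 and 5.69 CPM, overlapped between populations. Of 16 tested genes of the dystrophin complex and of the glycosylation of dystroglycan, none passed in edgeR or limma-voom, 2 did in DESeq2 and 2 had an unadjusted p under 0.05. Dystrophin, Dmd, was at 60.9 and 76.2 against 11.7 and 6.75 CPM (2.89, SE 0.97, adjusted p = 0.102). Sgcd, a sarcoglycan, had 10 and 67 counts against none and was at least 9.70-fold higher (adjusted p = 0.131), and the syntrophin Sntb2 was at 1.77 (SE 0.96, 0.307). The glycosyltransferase Large was at 21.8 and 44.9 against 3.59 and 0 CPM (4.19, SE 1.93, adjusted p = 0.220). Dmd and Large passed in DESeq2, and Large passed also when Lgr6- replicate 1 was left out (0.0194).

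Integrin activators and adhesion adaptors inside the cell were read in a leukocyte list and a general list. Of 9 tested adaptors known from leukocytes, none was higher in edgeR, DESeq2 or limma-voom, nor at an unadjusted p under 0.05. The median log2 fold change was -3.52, and 5 were lower in edgeR (55.6%, against 4.57% of all genes). They included the Rap1 effector Apbb1ip (-7.68, SE 1.15, adjusted p = 0.00474), Fyb (-4.74, SE 0.86, 0.0114), Skap2 (-3.46, SE 0.61, 0.0103) and Cytip (-3.52, SE 0.51, 0.00430). Of 21 adaptors and activators used by many cells, 4 were higher and 4 lower (19.0% each, against 4.49% and 4.57% of all genes). The tensins Tns1 (3.33, SE 0.62, 0.0134) and Tns2 (7.13, SE 1.58, 0.0260), which tie integrin tails to actin, were higher. The focal adhesion protein Zyx (-2.12, SE 0.42, 0.0162) and the GTPase Rap1b (-2.02, SE 0.42, 0.0198) were lower, Zyx not when Lgr6- replicate 2 was left out (0.0580) and Rap1b not under library-size scaling (0.0579).

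Ligands of integrins gave values in both directions. Of those tested on cell surfaces 50.0% were higher, against 4.49% of all genes. Of 6 tested ligands on cell surfaces, 3 were higher: Cdh1, the epithelial cadherin bound by alphaEbeta7 (4.37, SE 0.44, adjusted p = 9.58e-04), and the junctional adhesion molecules F11r (3.60, SE 0.68, 0.0140) and Jam2 (3.56, SE 0.74, 0.0198). Without replicate 2 of the Lgr6+ population F11r missed the threshold (0.0570), as it did in limma-voom (0.0795). The LFA-1 ligand Icam1 was at 111 and 53.2 against 88.6 and 114 CPM and was not called (-0.31, SE 0.63, adjusted p = 0.843). Of 12 tested soluble and matrix ligands, 5 were higher and 2 lower (41.7% and 16.7%, against 4.49% and 4.57% of all genes). Tnc, the tenascin C gene, had 412 and 438 counts in the Lgr6+ and none in the Lgr6- libraries and was at least 106-fold higher (adjusted p = 0.0114). Mfge8, a milk fat globule protein bound by alphavbeta3 and alphavbeta5 (5.73, SE 0.94, 0.00760), and fibrillin, Fbn1 (4.002, SE 0.66, 0.00803), were higher, and thrombospondin, Thbs1, was lower (-1.86, SE 0.28, 0.00523).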

How the data were processed

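RNA from 2 Lgr6-positive and 2 Lgr6-negative sorted mammary cell libraries was sequenced. Expected counts, not scaled for depth, come from 1 deposited table that covers all libraries. The submitters' processing notes name RSEM 1.2.22, STAR 2.4.2a and mm10. No source used here gives the annotation, strand setting or trimming, and between 3.36% and 4.86% of the values in a library were fractional. Values were rounded and tested with edgeR 4.0.16 in R 4.3.3 (TMM factors 0.787 to 1.21, filterByExpr with minimum count 10 and minimum total 15, quasi-likelihood fit and test on the population term, common dispersion 0.795). Calls had a Benjamini-Hochberg adjusted p under 0.05 over all 11661 tested genes, and standard errors (SE) were obtained by dividing the size of a log2 fold change by the root of its F statistic. A floor of 3 counts is 0.368 to 0.533 CPM. The code was run on simulated counts that vary less between libraries than these data do. That check therefore does not measure how often calls are missed or wrong here. Of the genes in the text, all passing members have full values, as do up to 2 others per ligand or chain group. Up to 4 tested genes of the smallest p per partner list have a fold change or a bound with an adjusted p. The rest have levels or counts. The members and lists were chosen with earlier results of these data known. Exon lengths and positions came from GENCODE M21 (GRCm38, also called mm10), matched by symbol, and may differ from the authors' annotation. DESeq2 1.42.0, limma-voom (limma 3.58.1), other scalings and filters and left-out libraries were alternatives, and tables were made with Python 3.11.15, pandas 2.3.3 and scipy 1.17.1. 1 gene counted among the members is not reported here by name.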

Additional observations from a re-analysis of the deposited data

How the results depend on the processing

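Of the 16 calls among the integrin, laminin and linker genes, 13 of 132 comparisons of a higher gene with an alternative fell short of the threshold and none turned direction, and 0 of 60 comparisons of a lower gene did either. The count of higher genes was 7 in limma-voom against 11 (Agrn, Itga3, Itgb4, Itgb8 and Lama5 lost) and ran from 8 to 12 when single libraries were left out, with 5 lower genes each time. Over all genes, 524 were higher and 533 lower, with 967 and 854 without a filter on low counts, 1412 and 1003 in DESeq2, 327 lower under library-size scaling, and 678 to 956 higher and 540 to 1030 lower when single libraries were left out, the most without replicate 1 of the Lgr6-positive population. Signs turned only for genes that did not pass: under library-size scaling for Itgb1 (0.36), Itga5 (0.11), Lama1 (0.35) and Icam1 (0.17). When single libraries were left out, the log2 fold change ran from -0.36 to 0.25 for Itgb1, -0.29 to 1.79 for Itgb3, -0.25 to 1.01 for Itgb5, -0.87 to 0.44 for Lama1, -3.61 to 0.43 for Nid2 and -0.93 to 0.10 for Icam1. Limma-voom called 754 genes higher and 728 lower over all genes, and 1 higher and 6 lower of the 23 tested integrin subunits. DESeq2 gave 13 higher and 6 lower members. A replicate block gave 11 higher and 5 lower genes, 15 of them shared with the 16 reported, and 678 and 662 over all genes. The labels do not say that a replicate number pairs libraries, and deviations of same-numbered libraries correlated at -0.02 across genes. Leaving out a library leaves 1 library in a population, which is then assumed to vary like the others.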
